A study of Ovis aries with 6 samples.

Results

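The core adipogenic transcription factors are the 10 genes PPARG2, RXRA, NR1H3, CEBPB, CEBPD, CEBPA, KLF5, KLF9, KLF15 and SREBF1. They were chosen by symbol among the 26425 rows of the deposited table, and all 10 were present, with PPARG written as PPARG2. Their levels were measured by RNA sequencing of sheep cells from the adipose stromal vascular fraction, the mixed fraction that holds fat cell precursors. In 3 samples MEOX2, a mesodermal homeobox factor, was overexpressed, and 3 samples formed the control group called NC. Column names of the table carry the prefix pHBLV in both groups, so the NC cells share whatever that vector is. The labels do not state the age and breed of the animals, the days in culture, the promoter that drives MEOX2 and any differentiation treatment. Nothing says that the 3 samples of a group are separate cultures or animals. The p-values therefore judge group differences only against the scatter among these samples, and that scatter may be technical. The question was which of these factors differed between cells with forced MEOX2 and NC cells, in a study of how MEOX2 affects adipogenic differentiation.

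As background, fat cell formation runs through a cascade of transcription factors. CEBPB and CEBPD are induced first by hormonal cues, among them glucocorticoids, and with KLF5 they switch on PPARG and CEBPA. PPARG binds DNA as a heterodimer with an RXR receptor and, with CEBPA, turns on the genes of the mature fat cell, and PPARG and CEBPA sustain each other. The liver X receptor NR1H3, the sterol regulatory factor SREBF1 and the Krüppel-like factors KLF9 and KLF15 add to lipid gene expression or to PPARG induction. Most of this was worked out in mouse cells.

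Values are FPKM, fragments scaled by the authors to gene length and to sequencing depth, and whole reads could be recovered from them, 11772772 to 12230863 per library. MEOX2 itself averaged 132.9 ± 23.0 FPKM in MEOX2 cells and 9.98 ± 0.910 FPKM in NC cells (SD, n = 3 each). The first principal component held 34.0% of the variance and separated the groups. NC sample 3 stood apart on the second (22.2%), at 21.2, with the other 5 libraries between -14.2 and 8.12. Its mitochondrial read share was 1.25%, against 0.878% and 0.958% in the other NC samples and 0.796% to 1.27% in MEOX2 samples. The labels call the cells adipocytes. Fat cell markers were present, but their sum was small beside that of stromal progenitor markers. The 7 matched adipocyte markers summed to 117.3 to 140.8 FPKM in MEOX2 samples and 284.5 to 339.2 FPKM in NC samples. The 11 progenitor markers summed to 21127 to 23578 FPKM in MEOX2 samples and 19195 to 20504 FPKM in NC samples. By the limma test described below, 4 of 5 tested adipocyte markers were called lower, beside 1.16% of all genes. These were ADIPOQ, FABP4, PLIN1 and CIDEC, and LPL was not called. PLIN1 and CIDEC missed the threshold in every fit that left out a library. None of 9 tested progenitor markers was called, with a median log2 change of -0.02, 5 negative and 4 positive. Yet 5 of the 9 had an unadjusted limma p under 0.05, against 13.4% of all genes. The MEOX2 samples lay wholly above the NC samples for 3 and wholly below for 3, beside 9.6% and 9.33% of all genes. The marker sums are weighted to the most abundant genes and do not measure the share of each cell type. LEP, the leptin gene, had no read in any library. In such bulk samples, fewer fat cells and less RNA per fat cell cannot be told apart.

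Of the 10 factors, 1 was called. PPARG2, the nuclear receptor at the centre of the cascade, fell by 40.8% with MEOX2. The other 9 did not pass the test, which does not show that they were unchanged. Differences were tested with limma on log2(FPKM + 1), with Benjamini-Hochberg adjustment over 13121 genes whose mean reached 1 FPKM and a threshold of 0.05. All 10 factors were in that test. It called 2.67% of all genes in either direction and 1.16% lower in MEOX2 cells, so 1 of 10 factors lower compares with a background of 1.16%. The median log2 change was -0.12 over the 10 factors and -0.0027 over all genes tested. By limma voom on the recovered reads 4.37% of all genes were called, and PPARG2 was again the one factor called.

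**Figure D1:**
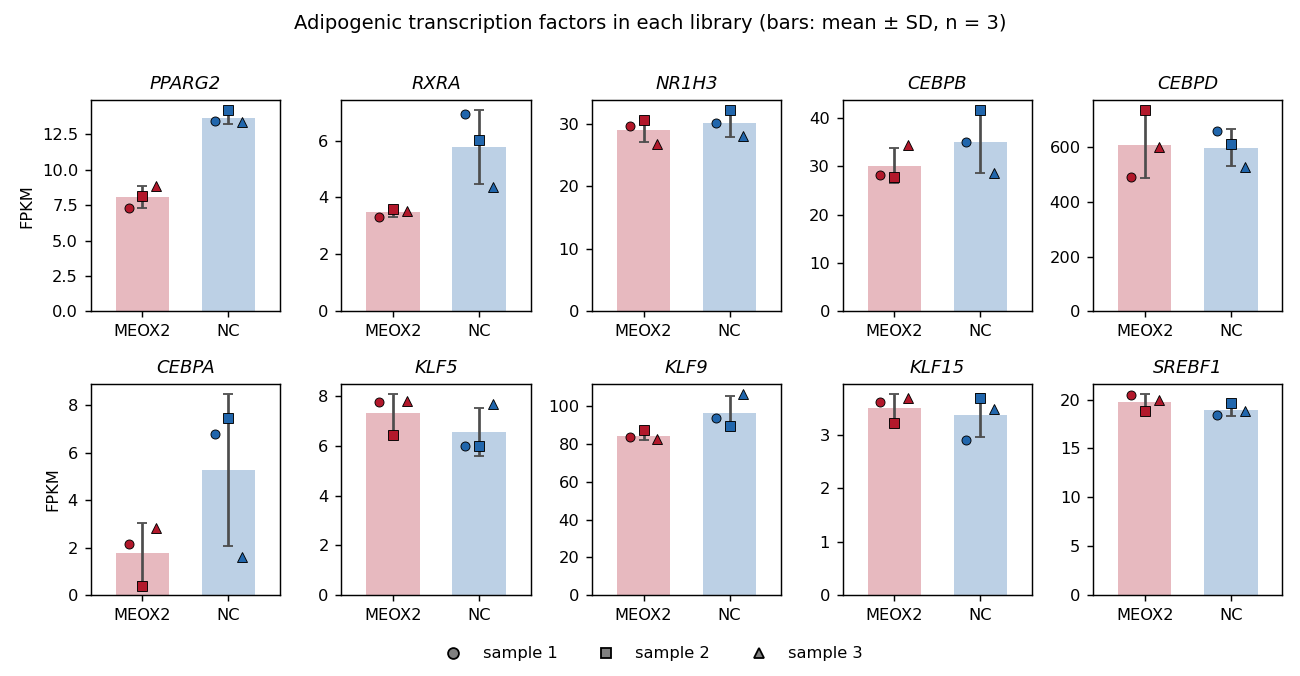
FPKM of the 10 factors in each library, with MEOX2 samples (red) left of NC samples (blue) in each panel; bars are group means, error bars the SD (n = 3), and marker shapes the sample number. PPARG2, RXRA and KLF9 have no overlap between groups, and in the CEBPA panel NC sample 3, at 1.599 FPKM, lies among the MEOX2 samples.

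PPARG2 (ENSOARG00000016452, chromosome 19, 56552358 to 56652679, as in the table, whose genome build the sources used here do not name) stood at 7.31, 8.14 and 8.83 FPKM in MEOX2 samples 1 to 3, against 13.5, 14.2 and 13.4 FPKM in NC samples 1 to 3. The highest MEOX2 sample lay well under the lowest NC sample, and the values rested on 134 to 174 and 260 to 280 reads. Counting error would give a coefficient of variation of 7.98% in MEOX2 samples and 6.10% in NC samples. Those observed were 9.39% and 3.35%, so the NC samples lay closer together than counting error would give. The log2 change was -0.69 (SE 0.10, 95% interval -0.91 to -0.48, limma adjusted p = 0.00875), with 85 of the 13121 genes at a smaller p. An exact two-sided permutation test gave p = 0.1, and no smaller p can come from 3 samples a group. The call did not depend on NC sample 3: without it the log2 change was -0.71 (limma adjusted p = 0.0212). The row has a length of 1610 bases over a span of 100322, and which bases were counted is not stated. Its name therefore does not mean that isoform 2 was measured apart from isoform 1.

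The heterodimer partner RXRA (ENSOARG00000002366, chromosome 3, 1694451 to 1718246) had values in the same direction without passing the test. Its levels were 3.31, 3.59 and 3.52 FPKM in MEOX2 samples and 6.93, 6.02 and 4.38 FPKM in NC samples. The groups did not overlap, the MEOX2 samples were close together, and NC sample 3 was the lowest of its group. The log2 change was -0.58 (SE 0.15, 95% interval -0.92 to -0.24, limma adjusted p = 0.101). Without NC sample 3, where 2.1% of all genes were called, RXRA passed with a log2 change of -0.74 (limma adjusted p = 0.0259), and with any other library left out it did not. RXRA had 48 to 57 reads in MEOX2 samples and 69 to 106 in NC samples, so counting error alone was wide. It would give a coefficient of variation of 13.7% in MEOX2 samples and 10.6% in NC samples. Those observed were 4.28% and 22.3%, so the NC samples scattered more than counting error would give.

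NR1H3, the liver X receptor alpha that senses oxysterols (ENSOARG00000005858, chromosome 15, 75361774 to 75367849), had 29.7, 30.6 and 26.8 FPKM in MEOX2 samples and 30.05, 32.2 and 27.97 FPKM in NC samples. The groups overlapped, and sample 3 was the lowest in each. The log2 change of -0.05 had a 95% interval of -0.25 to 0.15 (limma adjusted p = 0.882).

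Paralogs of the 3 receptors, named here for their relation to the factors, gave a frame for these levels. PPARD averaged 9.85 ± 1.36 FPKM in MEOX2 cells and 8.88 ± 1.204 FPKM in NC cells, and PPARA 2.72 ± 0.130 FPKM in MEOX2 cells and 2.37 ± 0.432 FPKM in NC cells (SD, n = 3 each), neither called. PPARG2 made up 35.5% to 42.8% of the summed FPKM of the 3 PPAR genes in MEOX2 samples and 52.5% to 57.8% in NC samples, a share computed after the values were seen and not tested. RXRB, another RXR gene, averaged 11.3 ± 0.315 FPKM in MEOX2 cells and 11.1 ± 0.818 FPKM in NC cells and was not called, and RXRG had at most 1 read in any library. RXRA held 22.6% to 24.7% of the summed RXR level in MEOX2 samples and 29.7% to 38.9% in NC samples. For the liver X receptors, NR1H3 held 75.1% to 77.1% of its sum with NR1H2 in MEOX2 samples and 75.7% to 77.6% in NC samples, ranges that overlapped.

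Among the C/EBP factors none was called. CEBPD (ENSOARG00000011169, chromosome 9, 31967164 to 31967945), an early factor of the cascade, was the most abundant of the 10 in both groups. It had 488.7, 732.9 and 597.6 FPKM in MEOX2 samples and 656.1, 608.6 and 525.05 FPKM in NC samples. MEOX2 samples 1 and 2 held its lowest and its highest value, so the spread within that group covered the NC samples. With 2870 to 4706 reads, counting error would give a coefficient of variation of 1.63%, while the observed one was 20.2% in MEOX2 samples and 11.1% in NC samples. The log2 change was 0.01 (95% interval -0.32 to 0.34, limma adjusted p = 0.989), with a sign that turned in several alternatives.

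CEBPB (ENSOARG00000013395, chromosome 13, 77752054 to 77755971), the other early C/EBP factor, had 28.1, 27.8 and 34.3 FPKM in MEOX2 samples and 35.0, 41.6 and 28.7 FPKM in NC samples. MEOX2 sample 3 lay above NC sample 3, and the other MEOX2 samples lay below all NC samples. The log2 change was -0.21 (95% interval -0.52 to 0.11, limma adjusted p = 0.6004). It was -0.08 without NC sample 2 and -0.34 without NC sample 3, and was called in neither fit. CEBPG, a further C/EBP family member, averaged 50.99 ± 1.74 FPKM in MEOX2 cells and 49.2 ± 3.63 FPKM in NC cells (SD, n = 3 each).

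CEBPA (ENSOARG00000004414, chromosome 14, 43017755 to 43019889), the late factor that acts with PPARG, had the most negative fitted value of the 10 and the least precise. Levels were 2.17, 0.397 and 2.82 FPKM in MEOX2 samples and 6.79, 7.46 and 1.599 FPKM in NC samples. NC samples 1 and 2 were above every MEOX2 sample, while NC sample 3 lay below MEOX2 samples 1 and 3. These levels rested on 10, 2 and 14 reads in MEOX2 samples and 33, 37 and 8 reads in NC samples. The exact Poisson 95% interval of NC sample 3 was 0.691 to 3.15 FPKM and that of NC sample 1 was 4.67 to 9.54 FPKM, so the spread among NC samples exceeded counting error, the only error these intervals cover. The log2 change of -1.11 had a 95% interval of -2.23 to 0.0064 (SE 0.49, limma adjusted p = 0.377). It was -1.66 without NC sample 3 (limma adjusted p = 0.0884) and -0.67 without MEOX2 sample 2 (0.662), and none of the 6 fits that left out a library called it. The 1 FPKM added before the logarithm shrinks changes at such low levels. With 0.1 FPKM added instead, the log2 change was -1.58 (limma adjusted p = 0.414). By limma voom it was -1.59 (limma voom adjusted p = 0.212). Counting error would give a coefficient of variation of 34.0% in MEOX2 samples and 19.6% in NC samples. Those observed were 69.9% and 60.7%. A difference in CEBPA was not resolved with this scatter and these read numbers. The gene length was 405 bases in the table, against a span of 2135 bases.

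**Figure D2:**
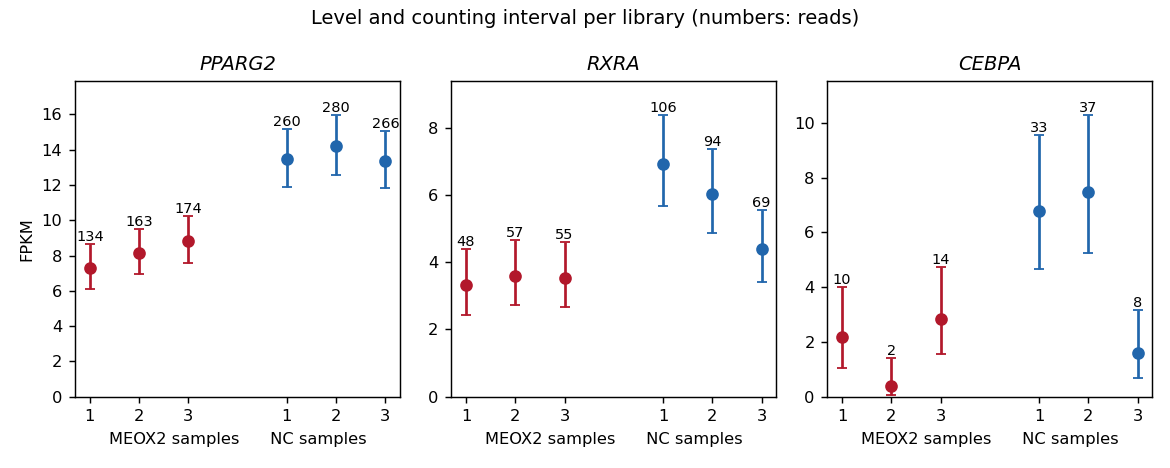
FPKM of PPARG2, RXRA and CEBPA in each library, MEOX2 samples (red) left of NC samples (blue), with exact Poisson 95% intervals for counting error and the number of reads above each. The intervals of PPARG2 separate the groups, and CEBPA in NC sample 3, with 8 reads, overlaps those of all 3 MEOX2 samples.

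KLF5, which works with the early C/EBP factors at the PPARG promoter in mouse cells (ENSOARG00000015505, chromosome 10, 48241169 to 48264092), had 7.76, 6.46 and 7.79 FPKM in MEOX2 samples and 5.99, 5.996 and 7.68 FPKM in NC samples. NC sample 3 sat with the higher MEOX2 samples. The log2 change was 0.15 (95% interval -0.14 to 0.43, limma adjusted p = 0.704). It ranged from 0.09 without NC sample 1 to 0.25 without NC sample 3, and was not called with any library left out.

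KLF9, a glucocorticoid-inducible factor (ENSOARG00000012896, chromosome 2, 65733123 to 65757216), had 83.5, 87.2 and 82.7 FPKM in MEOX2 samples and 93.8, 89.6 and 106.6 FPKM in NC samples. The groups did not overlap, although the gap between MEOX2 sample 2 and NC sample 2 was small. The log2 change of -0.19 (95% interval -0.38 to 0.00057) did not pass (limma adjusted p = 0.374), and it was -0.12 without NC sample 3. Groups were apart in this downward direction for 9.33% of all genes tested, and for 3 of the 10 factors, PPARG2, RXRA and KLF9. No factor had every MEOX2 sample above every NC sample, against 9.6% of all genes.

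KLF15 (ENSOARG00000006771, chromosome 19, 59765042 to 59766117) also responds to glucocorticoids, and had 3.605, 3.21 and 3.69 FPKM in MEOX2 samples and 2.91, 3.69 and 3.49 FPKM in NC samples. The groups overlapped on 34 to 44 reads, with a log2 change of 0.05 (95% interval -0.24 to 0.33, limma adjusted p = 0.920).

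SREBF1, the driver of fatty acid synthesis genes (ENSOARG00000001504, chromosome 11, 34176887 to 34191779), had 20.5, 18.9 and 19.97 FPKM in MEOX2 samples and 18.4, 19.7 and 18.9 FPKM in NC samples. These were among the tightest values of the set, with a coefficient of variation of 4.196% in MEOX2 samples and 3.34% in NC samples. The log2 change of 0.06 had a 95% interval of -0.12 to 0.24 (limma adjusted p = 0.848), the narrowest interval of the 10 factors. Its paralog SREBF2 averaged 61.0 ± 6.31 FPKM in MEOX2 cells and 59.7 ± 1.24 FPKM in NC cells (SD, n = 3 each).

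**Figure D3:**
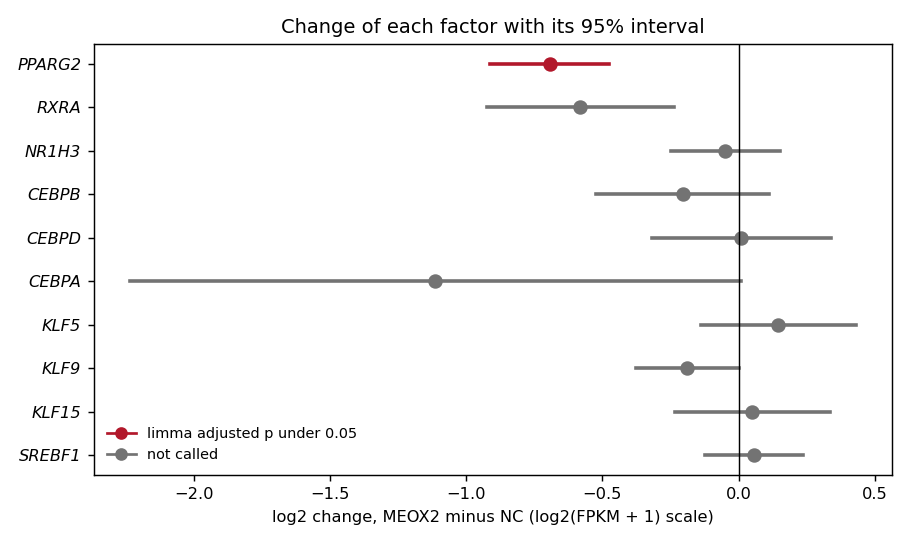
Log2 change of each factor, MEOX2 minus NC on the log2(FPKM + 1) scale (points), with its 95% interval from limma (lines). PPARG2, at -0.69, is the one factor called; the interval of RXRA also lies below 0 but its adjusted p of 0.101 misses the threshold, and CEBPA has the widest interval.

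The levels were ordered alike at the top of both groups: CEBPD, KLF9, CEBPB, NR1H3 and SREBF1, with the ranges of CEBPB and NR1H3 overlapping in each. PPARG2 followed in both. In MEOX2 samples its range overlapped that of KLF5, at 7.34 ± 0.761 FPKM (SD, n = 3), and in NC samples it lay clear above KLF5, at 6.56 ± 0.974 FPKM. The lowest places were held by KLF15, RXRA and CEBPA in MEOX2 samples and by RXRA, CEBPA and KLF15 in NC samples, where the range of CEBPA overlapped those of RXRA and KLF15 and the range of RXRA lay above that of KLF15. By mean level, PPARG2 stood above 39.9% of the tested genes in MEOX2 cells and above 55.0% in NC cells. Levels of different genes depend on the gene lengths in the table, which were 381 bases for CEBPB, 405 for CEBPA, 516 for CEBPD and 3183 for SREBF1, so the order carries that uncertainty. The lengths of CEBPB and CEBPA cover 9.72% and 19.0% of their spans in the table, and whether reads outside the bases used were counted is not stated, which bears on their read numbers and levels.

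NC sample 3 was the lowest NC sample for 6 of the 10 factors, all 3 receptors and all 3 C/EBP factors, and the highest for KLF5 and KLF9. Values without it are given above for PPARG2, RXRA, CEBPA, CEBPB, KLF5 and KLF9. No batch or date is given in the labels. The level of MEOX2 in the overexpressing samples, 152.7, 107.7 and 138.4 FPKM, was not ordered as PPARG2 was, and with 3 samples no relation was tested.

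Genes whose pattern over the 6 libraries was nearest to that of PPARG2 were SIX2, SCUBE2 and IGFBP-5, with root-mean-square differences of 0.060, 0.067 and 0.070 between centred log2(FPKM + 1) values. SCUBE2 averaged 15.0 ± 0.547 FPKM in MEOX2 cells and 25.1 ± 1.22 FPKM in NC cells, and IGFBP-5, a binding protein of insulin-like growth factors, 84.9 ± 4.19 FPKM in MEOX2 cells and 135.8 ± 6.73 FPKM in NC cells (SD, n = 3 each). SIX2, a homeobox factor, averaged 5.40 ± 0.668 FPKM in MEOX2 cells and 9.02 ± 0.633 FPKM in NC cells. RXRA was the nearest of the other factors, at rank 122 with 0.177. For CEBPA the nearest rows were TTC31, U6 and 5S_rRNA, at 0.351, 0.448 and 0.478. Those rows had 1 to 14, 1 to 6 and 1 to 8 reads per library, and U6 and 5S rRNA have many near-identical copies, so this likeness is one of sparse counts.

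Genes on which these factors act were read from the same fit. All lists here and below were written with earlier results of these data known. Their called shares are therefore descriptions and give no independent evidence. Of 24 PPARG target genes of fat cells, 22 were in the table and 19 were tested; 7 fell, none rose and 12 were not called, a called share of 36.8% beside 2.67% of all genes. Their median log2 change was -0.49, and 10 of the 19 had an unadjusted limma p under 0.05, against 13.4% of all genes. ADIPOQ, the adipokine adiponectin, had 7.99, 5.92 and 7.47 FPKM in MEOX2 samples and 36.7, 39.6 and 34.3 FPKM in NC samples (log2 change -2.23, SE 0.12, limma adjusted p = 6.02e-05). FABP4, a fatty acid carrier, had 86.1, 84.2 and 68.4 FPKM in MEOX2 samples, against 246.0, 254.5 and 205.4 FPKM in NC samples (log2 change -1.55, SE 0.11, limma adjusted p = 3.24e-04). No MEOX2 sample of either gene came near the NC range. PLIN2, a lipid droplet coat protein listed as ADFP, fell to 280.5 ± 7.69 FPKM in MEOX2 cells, against 431.7 ± 14.2 FPKM in NC cells (SD, n = 3 each; log2 change -0.62, SE 0.07, limma adjusted p = 0.00285). PDK4, the kinase that restrains pyruvate oxidation, fell to 3.51 ± 0.111 FPKM in MEOX2 cells, against 7.35 ± 0.841 FPKM in NC cells (log2 change -0.88, limma adjusted p = 0.00697). The remaining called genes were PLIN1, CIDEC and FABP5, named outside the rule after their values were seen. With single libraries left out, the count of 7 was 4 in 5 of the 6 fits and 5 in the other. PLIN1 and CIDEC missed the threshold in all 6 (limma adjusted p up to 0.0872 and 0.0958). FABP5 missed it in 5, up to 0.156, and passed without MEOX2 sample 1 (limma adjusted p = 0.0152). LPL, a target that releases fatty acids from lipoproteins, had a log2 change of 0.0046 (SE 0.10). This list overlaps the adipocyte markers whose sum is given above, and the part that the number of fat cells plays in the PPARG2 result was not tested.

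Genes that act upstream of the factors or beside them were read in the same way. Of 24 other adipogenic transcription factors, 16 were tested and none was called by limma, while limma voom called 1 and 2 had an unadjusted p under 0.05, a threshold that 13.4% of all genes passed. The one called by voom was NR3C1, the glucocorticoid receptor, with 48.2, 43.7 and 42.9 FPKM in MEOX2 samples and 57.8, 51.8 and 68.0 FPKM in NC samples (limma adjusted p = 0.125; limma voom adjusted p = 0.0130). KLF6 had the next smallest p, with averages of 28.2 ± 1.18 FPKM in MEOX2 cells and 23.5 ± 1.11 FPKM in NC cells. The list's median log2 change was 0.02.

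Of 24 repressors and inhibitors of adipogenesis, 17 were tested. Among these, 1 rose and 16 were not called, beside 1.51% of all genes called higher. The median log2 change was -0.07, and 2 of the 17 had an unadjusted limma p under 0.05, against 13.4% of all genes. BHLHE40, a basic helix-loop-helix repressor, had 76.6, 69.2 and 76.4 FPKM in MEOX2 samples and 50.4, 48.3 and 52.5 FPKM in NC samples, with no overlap. It rose by 0.55 on the log2 scale (SE 0.08, limma adjusted p = 0.00920). The limma adjusted p was 0.0529 with MEOX2 sample 3 left out and 0.0549 with NC sample 1 left out, so both fits missed the threshold. HES1, a Notch target, averaged 4.30 ± 1.45 FPKM in MEOX2 cells and 6.57 ± 0.986 FPKM in NC cells and was not called. GATA2 and GATA3, which restrain the PPARG promoter in mouse preadipocytes, were listed at 0 in every library.

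Among 19 coregulators of the receptors, 16 were tested and none was called by limma, while limma voom called 1 and 1 had an unadjusted p under 0.05, against 13.4% of all genes. That gene was NRIP1, a nuclear receptor corepressor, at 16.5, 16.5 and 17.6 FPKM in MEOX2 samples and 19.8, 21.4 and 25.96 FPKM in NC samples (limma adjusted p = 0.127). TLE3, a cofactor of PPARG, averaged 9.40 ± 1.75 FPKM in MEOX2 cells and 11.1 ± 0.892 FPKM in NC cells. The median log2 change was -0.05.

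Glucocorticoid-induced genes were listed because CEBPD, KLF9 and KLF15 respond to that hormone. Of 12, 8 were tested. Among these, 2 fell, none rose and 6 were not called, beside 1.16% of all genes called lower. The median log2 change was -0.19, with 6 negative and 2 positive. Every MEOX2 sample lay below every NC sample for 4 of the 8 and above for 2, beside 9.33% and 9.6% of all genes. An unadjusted limma p under 0.05 was found for 5, against 13.4% of all genes. SGK1, a serum- and glucocorticoid-regulated kinase, had 32.0, 38.1 and 33.8 FPKM in MEOX2 samples and 53.9, 53.1 and 55.7 FPKM in NC samples. Its fall of -0.64 on the log2 scale (SE 0.08, limma adjusted p = 0.00770) kept its call with each library left out. FKBP5, a chaperone partner of the glucocorticoid receptor, had a log2 change of -0.37 (SE 0.07, limma adjusted p = 0.0295). In each of the 6 fits that left out a library it missed the threshold, at limma adjusted p values of 0.0568 to 0.156. TSC22D3, also glucocorticoid-induced and named outside the rule, averaged 25.9 ± 3.99 FPKM in MEOX2 cells and 21.2 ± 0.668 FPKM in NC cells and was not called.

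For NR1H3, 8 of 10 LXR target genes were tested. Among these, 1 fell and 7 were not called, beside 1.16% of all genes called lower. The median log2 change was -0.03, and 2 of the 8 had an unadjusted limma p under 0.05, against 13.4% of all genes. APOE, the apolipoprotein of cholesterol efflux, had 162.7, 213.3 and 205.8 FPKM in MEOX2 samples and 461.5, 457.7 and 313.02 FPKM in NC samples, NC sample 3 again the lowest of its group. It fell by 1.07 on the log2 scale (limma adjusted p = 0.0123). The limma adjusted p missed the threshold at 0.0549 with NC sample 1 left out and at 0.0537 with NC sample 2 left out. APOD was at 146.03 ± 6.01 FPKM in MEOX2 cells and 180.5 ± 4.46 FPKM in NC cells, with a limma adjusted p of 0.0594. For SREBF1, 14 of 15 target genes were tested. Among these, 1 rose and 13 were not called, beside 1.51% of all genes called higher. An unadjusted limma p under 0.05 was found for 6 of the 14, against 13.4% of all genes. Log2 changes were positive for 10 and negative for 4. The median log2 change was 0.08. FADS1, a fatty acid desaturase, rose by 0.49 on the log2 scale (limma adjusted p = 0.0244) and missed the threshold in 5 of 6 fits that left out a library (limma adjusted p up to 0.107). ACACB, an acetyl-CoA carboxylase, averaged 11.2 ± 2.38 FPKM in MEOX2 cells and 6.91 ± 0.720 FPKM in NC cells (limma adjusted p = 0.0820). None of the 5 genes of SREBP cleavage was called by limma or limma voom, and none had an unadjusted p under 0.05; SCAP and MBTPS2 had log2 changes of -0.16 and -0.15, and the list's median was -0.10.

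**Figure D4:**
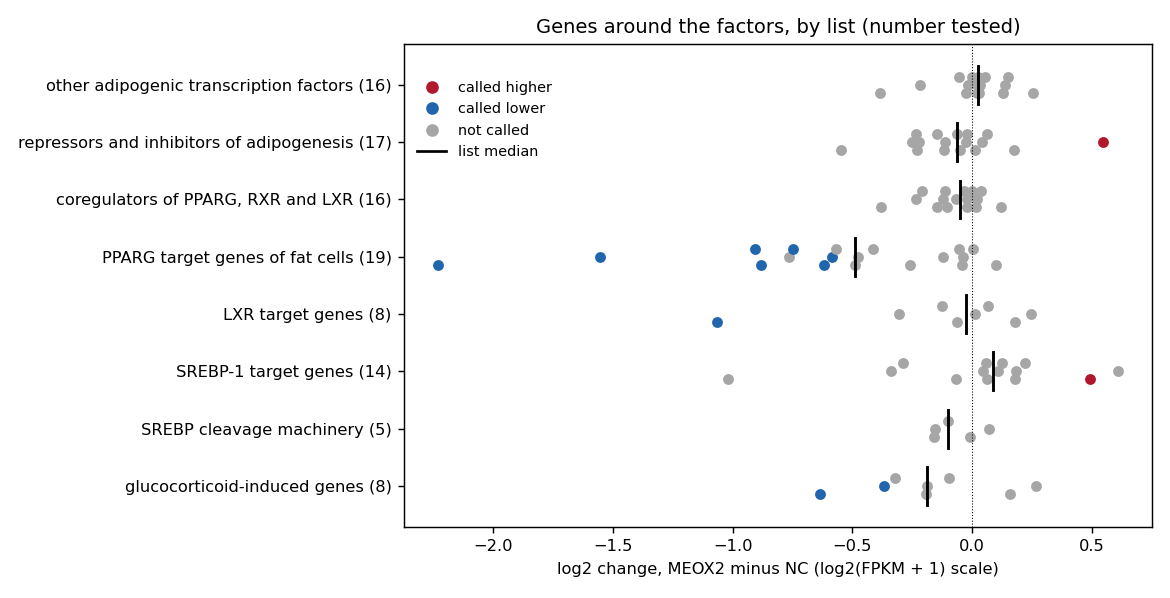
Log2 change, MEOX2 minus NC, of each tested gene in the 8 lists around the factors, with the number tested in brackets; red and blue points were called higher and lower by limma, grey points were not called, and black bars are list medians. The PPARG target genes have 7 called lower and a median of -0.49, and the other medians lie between -0.19 and 0.08.

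Markers of other cells were read in the same libraries. Leukocyte markers summed to 122.9 to 134.5 FPKM in MEOX2 samples and 114.9 to 122.7 FPKM in NC samples, mostly from CD14, and PTPRC, which defines leukocytes, had at most 2 reads in any library. Endothelial markers summed to 1.96 to 3.40 FPKM in MEOX2 samples and 1.71 to 3.18 FPKM in NC samples. Of the 7 smooth muscle and pericyte markers in the table, 5 were tested and 2, CNN1 and CSPG4, rose, beside 1.51% of all genes called higher. Of the 5, 4 had a positive log2 change and 1 a negative one. Every MEOX2 sample lay above every NC sample for 3 and below for 1, beside 9.6% and 9.33% of all genes. The 7 markers summed to 579.2 to 616.7 FPKM in MEOX2 samples and 481.7 to 494.5 FPKM in NC samples. The part of these markers in the fall of PPARG2 was not tested.

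**Figure D5:**
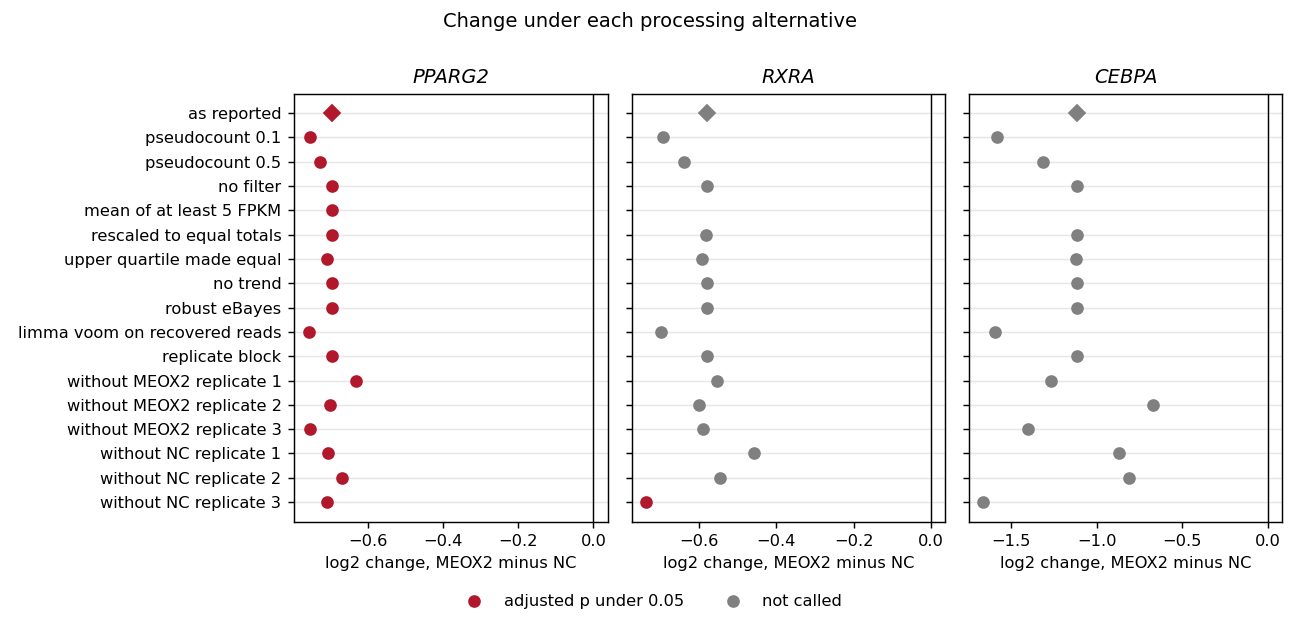
Log2 change, MEOX2 minus NC, of PPARG2, RXRA and CEBPA as reported (diamonds) and under each processing alternative (circles), red where the adjusted p was under 0.05; a missing point means that the gene did not pass that filter. PPARG2 was called in every setting drawn, between -0.76 and -0.63, RXRA only without NC replicate 3, and CEBPA in none.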

How the data were processed

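RNA was sequenced from 6 sheep samples, 3 with MEOX2 overexpression and 3 NC. The authors deposited 1 table of FPKM values per gene. Per the submitters' processing notes the tools included featureCounts 1.5.0-p3, HISAT2 2.0.5, DESeq2 1.20.0, CASAVA 1.8 and fastp, with no role stated for any. The sources used here name no genome build, annotation or strand setting, and overlapping or antisense genes cannot be told apart.

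FPKM times gene length gave whole numbers of reads within 0.01 for 100% of the values that were not 0. The library size behind the FPKM values was 0.967 to 1.02 times the recovered reads. limma 3.58.1 (R 4.3.3, eBayes with an intensity trend, no covariates) was run on log2(FPKM + 1). Exact two-sided permutation tests (20 regroupings) and Poisson intervals used scipy 1.17.1. List symbols (195) were matched by symbol (176) or RefSeq synonym (2, assembly ARS-UI_Ramb_v3.0), and 17 were not matched.

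The members, lists and tests were chosen with earlier results of these data known. Genes named were the members, MEOX2, up to 4 called genes of each list by smallest p (the 2 smallest p where fewer were called) and the 3 nearest in pattern to PPARG2 and CEBPA. Others are said to be outside that rule, except markers, paralogs, GATA2, GATA3 and LPL, named as background. Alternatives were other pseudocounts, filters, scalings and variance models, limma voom, a replicate block and each library left out.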

Additional observations from a re-analysis of the deposited data

How the results depend on the processing

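PPARG2 kept its direction and its call in all 16 alternatives, with log2 changes from -0.76 to -0.63 and adjusted p values up to 0.0474. RXRA passed without NC replicate 3 (-0.74, 2 factors called) and in no other setting, from -0.70 to -0.46 elsewhere. Signs turned for 3 factors that were never called: CEBPD was -0.0053 with the upper quartile made equal and -0.14 to 0.16 with a library left out, and with a library left out NR1H3 was -0.099 to 0.0051 and KLF15 -0.028 to 0.10. A mean of at least 5 FPKM left RXRA, CEBPA and KLF15 untested. The count of 350 called genes was 194 with no filter, where more genes were tested, 574 with limma voom and 117 to 276 with a library left out, where fewer samples were fitted. Called members of the lists numbered as follows. LXR target genes gave 0 with no filter, 2 with limma voom and 0 to 1 with a library left out. SREBP-1 target genes gave 0 with no filter, 2 with limma voom, 0 with the replicate block and 0 to 2 with a library left out. Glucocorticoid-induced genes gave 1 with no trend, 1 with the replicate block and 1 in each fit with a library left out. With a library left out PPARG target genes gave 4 to 5 and repressors 0 to 1, and other factors and coregulators 1 each with limma voom. The causes of the list shifts were not tested. With the replicate block 242 genes were called, PPARG2 had an adjusted p of 0.0201, and of the called list genes FKBP5 (0.0922), CIDEC (0.0671) and FADS1 (0.0517) were no longer called. Same-numbered samples did not deviate together (correlations of -0.07 to 0.02 over 13121 genes), so the numbers were not taken as pairs. CEBPA, RXRA and KLF15 had the fewest reads of the 10 factors, 2 to 106 per library, so counting error was widest for them. Among these, the scatter exceeded counting error for CEBPA in both groups and RXRA in NC samples. Other factors also scattered more than counting error would give, among them CEBPD in both groups. In NC samples the coefficient of variation was 9.19% for KLF9 and 18.4% for CEBPB, where counting error would give 3.42% and 7.83%.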
